A study of Mus musculus with 6 samples.

Results

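The insulin signalling and glucose transporter genes examined here were Insr, Irs1, Irs2, Pik3r1, Akt1, Akt2, Slc2a1, Slc2a3 and Slc2a4, and they were taken by symbol from the deposited table of RNA-seq values. All 9 were found among the 17924 genes of the table, and all 9 held enough reads to be tested. The study asked what the loss of Nelfb, a subunit of the negative elongation factor complex that acts on paused RNA polymerase II, does to cells that are being turned into adipocytes. CTL cells came from Pdgfra-Cre+ mice that were either Nelfb fl/wt or Nelfb wt/wt, and which of these a CTL library had was not given. Nelfb-/- cells came from Nelfb fl/fl Pdgfra-Cre+ mice, so that both groups carried the Cre, on a C57BL/6J background. The Cre is driven by Pdgfra, and cells outside the lineage that expresses it keep the floxed allele. All cells were dermal fibroblasts of the dorsal skin of newborn (P0) mice that had spent 14 days in adipocyte differentiation medium, and 3 libraries were sequenced per group.

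Insulin binds the insulin receptor, a tyrosine kinase encoded by Insr, which phosphorylates the docking proteins encoded by Irs1 and Irs2. These recruit phosphoinositide 3-kinase (PI3K) through its regulatory subunit, for which Pik3r1 codes, and the lipid that PI3K makes brings the AKT kinases to the membrane. In adipocytes and muscle this signal moves the transporter GLUT4, encoded by Slc2a4, from vesicles inside the cell to its surface, whereas GLUT1 (Slc2a1), found in most cells, and GLUT3 (Slc2a3), best known from neurons, take up glucose without it. The mRNA levels given here do not measure the phosphorylation or the position of any of these proteins.

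Values are in CPM, reads per 1e+06 reads over the listed genes without regard to gene length, and the depth on these genes was 17.2 M to 29.4 M reads per library (M, 1e+06). The floor of detection was set at 3 reads, which is 0.102 to 0.175 CPM and far under the values of the 9 genes. Where 3 values are given for a group, they belong to replicates 1, 2 and 3 in that order. The labels call all samples mouse adipocytes. Nelfb was lower in each Nelfb-/- library (3.90 to 5.55 CPM) than in each CTL library (17.3 to 22.3 CPM), with a log2 fold change of -1.99 (limma, SE 0.22, adjusted p = 0.00502). The libraries also differed in the markers of the cells they held. The summed level of 10 adipocyte markers was 18199 to 29575 CPM across CTL and 9391 to 18537 CPM across Nelfb-/- libraries, and that of 8 macrophage markers was 97.9 to 360 CPM and 750 to 2155 CPM, highest in Nelfb-/- replicate 1. The sum of 6 fibroblast and preadipocyte markers was 2911, 2459 and 11602 CPM across CTL and 6245, 23749 and 25235 CPM across Nelfb-/- cells, so that CTL replicate 3 and Nelfb-/- replicate 1 each stood apart from the other libraries of their group. Skeletal muscle markers summed to 8.82 to 10.3 CPM across CTL and 41.5 to 56.9 CPM across Nelfb-/- libraries, those of keratinocytes to 2.58 to 2.89 and 6.40 to 14.0 CPM, and those of endothelial cells to 7.58 to 11.6 and 8.09 to 19.9 CPM. No marker of these lists was at the floor in all 6 libraries, but Myod1 was at 0 in CTL replicates 1 and 3 and Ckm in CTL replicate 2. In limma, 7 of 8 macrophage and 5 of 5 tested muscle markers rose past both limits, which 7.58% of all genes passed upwards, as did 1 of 6 fibroblast and 1 of 4 keratinocyte markers, while of 10 adipocyte markers Retn fell and Lep rose. As each library was left out, Csf1r, Fcgr1, Acta1, Des and Tnnt3 passed both limits in all 6 fits, and the other macrophage and muscle markers that rose passed in 2 to 5. Myog and Krt14 held enough reads to be tested only through the Nelfb-/- libraries. Adipoq, the gene of adiponectin, was at 698 to 1857 CPM across CTL and 488 to 802 CPM across Nelfb-/- libraries, and its log2 fold change of -1.07 (limma, SE 0.43, adjusted p = 0.140) did not pass. Plin1, which coats lipid droplets, was at 782 to 1196 and 286 to 710 CPM (-1.02, limma, SE 0.39, adjusted p = 0.125), so that defining adipocyte markers were read in every library of both groups.

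Of the 9 genes, Slc2a4 and Irs1 fell in Nelfb-/- cells, and no gene rose past an adjusted p of 0.05 together with a change of at least 2-fold. As the RNA was read in bulk, fewer cells of a type and less of an mRNA per cell cannot be told apart here or at any gene below. Akt1 passed the adjusted p with a change under 2-fold, upwards, and the other 6 genes did not pass. At an unadjusted p of 0.05 there were 3 genes lower and 2 higher, but no share of all genes was taken at that limit to set beside them. With voom weights 2 were lower and 0 higher at both limits, which 1688 of all 16252 genes passed in that fit. Of the 16252 genes tested across the table, 11.2% passed both limits, 3.64% downwards and 7.58% upwards, and 15.8% passed the adjusted p alone, 5.83% downwards and 9.96% upwards. The log2 fold change of Nelfb-/- relative to CTL was negative for 7 of the 9 genes and positive for 2, with a median of -0.41, where the median of all genes tested was 0.068. At 5 of the 9 genes the libraries of the 2 groups did not overlap, as was also the case for 38.1% of all genes. The plot of levels by library shows the gap at Slc2a4 and the wide spread of CTL at Insr, Irs2 and Slc2a1.

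**Figure D1:**
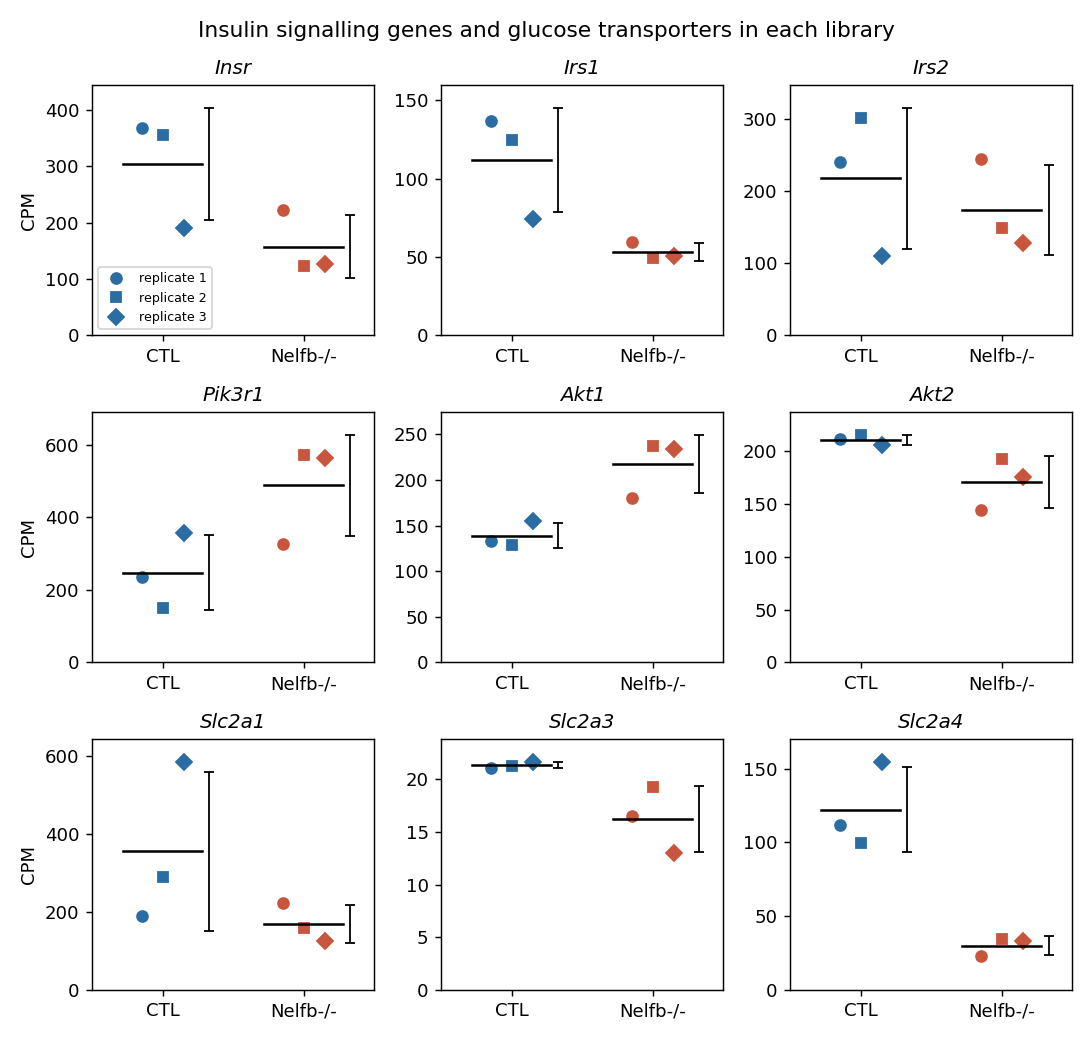
Level of each of the 9 genes (y axis, CPM, starting at 0) in the 3 CTL and 3 Nelfb-/- libraries (points, shaped by replicate number). Horizontal lines are group means and the bars beside them ± 1 SD, n = 3. Slc2a4 lies at 99.5 to 155 CPM across CTL and at 22.6 to 34.1 CPM in Nelfb-/- cells, whereas the groups overlap for Insr, Irs2, Pik3r1 and Slc2a1.

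Insr (ENSMUSG00000005534, chromosome 8 from 3122061 to 3279617, minus strand, GRCm38) encodes the receptor itself. It was measured at 368, 356 and 191 CPM across CTL and at 222, 123 and 127 CPM across Nelfb-/- cells. Nelfb-/- replicate 1 was above CTL replicate 3, so that the groups overlapped, although the mean of CTL (305 ± 99.3 CPM, SD, n = 3) was higher than that of Nelfb-/- cells (157 ± 56.2 CPM, SD, n = 3). The log2 fold change was -0.95 (SE 0.34, 95% interval -1.77 to -0.12) and did not pass (limma, adjusted p = 0.113). Without CTL replicate 3, the library with the fewest adipocyte marker reads of its group, it was -1.26 with an adjusted p of 0.0345 in limma, whereas without CTL replicate 1 or 2 or Nelfb-/- replicate 2 or 3 it was -0.82 to -0.78 with adjusted p-values of 0.278 to 0.306. Igf1r, the receptor of the closely related insulin-like growth factor 1, overlapped between the groups as well, at 96.8 to 147 CPM across CTL and 80.1 to 143 CPM across Nelfb-/- libraries. The pseudogene Vmn2r-ps88, on the other strand, shares 871 bases with the span of Insr and reached at most 0.496 CPM.

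Irs1 (ENSMUSG00000055980, chromosome 1 from 82233101 to 82291416, minus strand) codes for insulin receptor substrate 1, a docking protein of the receptor in adipocytes. Its values were 137, 125 and 74.0 CPM across CTL and 59.4, 49.1 and 50.7 CPM across Nelfb-/- cells. All 3 Nelfb-/- libraries were below all 3 CTL libraries, and CTL replicate 3 was the nearest to them. Irs1 fell from 112 ± 33.4 to 53.1 ± 5.55 CPM (SD, n = 3 each), a log2 fold change of -1.03 (SE 0.25, 95% interval -1.63 to -0.43, limma, adjusted p = 0.0383). The direction was kept as each library was left out (-1.30 to -0.86), but the call was not. The limma adjusted p was 0.126 without CTL replicate 1, 0.136 without CTL replicate 2, 0.117 without Nelfb-/- replicate 2 and 0.137 without Nelfb-/- replicate 3, and it was 0.00615 without CTL replicate 3. Gm9747, a gene on the other strand, shares 2822 bases with the span of Irs1 and reached at most 2.96 CPM.

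Irs2 (ENSMUSG00000038894, chromosome 8 from 10984681 to 11008458, minus strand), the second substrate gene, was at 241, 302 and 110 CPM across CTL and at 245, 149 and 128 CPM across Nelfb-/- cells. The groups overlapped over most of their range, since the lowest of the 6 values was in CTL and Nelfb-/- replicate 1 exceeded CTL replicate 1. The log2 fold change was -0.26 (SE 0.42, 95% interval -1.28 to 0.76, limma, adjusted p = 0.709), and it was 0.037 without CTL replicate 2. A change of Irs2 as large as that of Irs1 was within this interval, so that a difference between the genes is not shown by their tests.

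Irs1 and Irs2 are shown with the 250 bases before their transcription start in RefSeq, since these are paralogous genes of the same role. A link between these sequences and the mRNA levels was not tested. The sequences are from RefSeq (GRCm38.p6), in the direction of transcription, and capitals mark GC boxes (GGGCGG or its reverse complement CCGCCC, the core that Sp1-type factors bind) and E boxes (CACGTG, the same on both strands). The stretch of Irs1 is chr1:82291440-82291689 and that of Irs2 is chr8:11008930-11009179, both on the minus strand. Positions are counted from the start that RefSeq gives, which lies upstream of the end of each gene span given above.
Irs1: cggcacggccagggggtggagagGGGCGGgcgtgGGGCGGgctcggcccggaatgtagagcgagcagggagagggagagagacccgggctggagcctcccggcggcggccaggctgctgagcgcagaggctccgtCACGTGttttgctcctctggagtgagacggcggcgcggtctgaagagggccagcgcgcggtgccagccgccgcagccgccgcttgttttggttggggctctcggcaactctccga
Irs2: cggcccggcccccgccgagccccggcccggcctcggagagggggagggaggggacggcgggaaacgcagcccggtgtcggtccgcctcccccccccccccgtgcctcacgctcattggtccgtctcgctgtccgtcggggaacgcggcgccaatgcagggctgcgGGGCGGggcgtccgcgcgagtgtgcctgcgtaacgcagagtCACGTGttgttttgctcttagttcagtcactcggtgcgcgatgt
Both stretches are rich in G and C (72.4% for Irs1 and 72.8% for Irs2). Irs1 had 2 GC boxes and Irs2 had 1, and a GC box was found in 32.7% of the 32851 mouse promoters of the same length. Each had a single E box, which 6.02% of these promoters hold, starting 115 bases before the start of Irs1 and 44 bases before that of Irs2. CCAAT, searched on both strands and held by 33.8% of all promoters, was found at 2 places in Irs2, 137 and 101 bases before the start, and not in Irs1, and it is not in capitals. TATAAA, in 12.4% of all promoters, was not found in these stretches on either strand. A match of letters is a description and not a site of binding. Promoters were matched for 6 of the 9 genes, not for Insr, Slc2a3 and Slc2a4.

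Pik3r1 (ENSMUSG00000041417, chromosome 13 from 101680563 to 101768217, minus strand) encodes the p85 regulatory subunit of PI3K and shorter forms of it. It was at 237, 149 and 356 CPM across CTL and at 328, 572 and 564 CPM across Nelfb-/- cells. CTL replicate 3 exceeded Nelfb-/- replicate 1, and the order of the 6 libraries was the same as for the summed fibroblast and preadipocyte markers, with CTL replicate 2 lowest, except that Nelfb-/- replicates 2 and 3 changed places at the top. The part of these markers in the result was not tested. The log2 fold change was 1.02 (SE 0.37, 95% interval 0.13 to 1.92) and did not pass (limma, adjusted p = 0.113), while without CTL replicate 3 it was 1.33 with an adjusted p of 0.0436 in limma. Without CTL replicate 1 or 2 or Nelfb-/- replicate 2 or 3 the limma adjusted p was 0.246 to 0.302, and the lowest log2 fold change over the libraries left out was 0.71. Gm36638 shares 3486 bases of the same strand with Pik3r1 and reached at most 0.664 CPM.

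Akt1 (ENSMUSG00000001729, chromosome 12 from 112653821 to 112674884, minus strand) and Akt2 (ENSMUSG00000004056, chromosome 7 from 27591552 to 27640826, plus strand) encode kinases that act after PI3K, of which AKT2 is the form most tied to glucose uptake in adipocytes. Akt1 was at 133, 129 and 155 CPM across CTL and at 180, 238 and 234 CPM across Nelfb-/- cells. Every Nelfb-/- library was above every CTL library. Akt1 rose 1.56-fold, a log2 fold change of 0.64 (SE 0.17, 95% interval 0.24 to 1.04, limma, adjusted p = 0.0462), which is under the 2-fold limit. The direction was kept in every alternative, but the limma adjusted p was 0.0597 with TMM factors and 0.0615 with median-of-ratios factors. It was 0.158 without CTL replicate 1, 0.166 without CTL replicate 2, 0.146 without Nelfb-/- replicate 2 and 0.181 without Nelfb-/- replicate 3.

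Akt2 had values of 211, 215 and 205 CPM across CTL and of 144, 192 and 176 CPM across Nelfb-/- cells. The groups did not overlap and the CTL libraries lay close together, yet the log2 fold change of -0.31 (SE 0.15, 95% interval -0.68 to 0.048) did not pass (limma, adjusted p = 0.205). Per length of exons, where the genes can be set against each other, Akt1 was at 32.5, 31.4 and 37.7 CPM per kb across CTL and at 44.0, 58.0 and 57.0 CPM per kb across Nelfb-/- cells. Akt2 was at 29.6, 30.1 and 28.8 CPM per kb across CTL and at 20.2, 26.9 and 24.6 CPM per kb across Nelfb-/- cells. On this scale Akt1 was above Akt2 in each of the 6 libraries, and the gap was wider in every Nelfb-/- library than in any CTL library. In CPM, Akt2 was above Akt1 in every CTL library. The order in CTL thus depends on the exon lengths used, 4098 bases for Akt1 and 7131 bases for Akt2. No test was made of this gap.

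Slc2a4 (ENSMUSG00000018566, chromosome 11 from 69942539 to 69948188, minus strand), the gene of the insulin-responsive transporter GLUT4, had the largest log2 fold change of the 9 genes. It was at 112, 99.5 and 155 CPM across CTL and at 22.6, 34.1 and 33.3 CPM across Nelfb-/- cells. The highest Nelfb-/- value was under the lowest CTL value, and CTL replicate 3, which was low for Insr and Irs1, was the highest here. Slc2a4 fell from 122 ± 28.9 to 30.0 ± 6.43 CPM (SD, n = 3 each), a log2 fold change of -2.02 (SE 0.24, 95% interval -2.59 to -1.46, limma, adjusted p = 0.00575) or 4.06-fold. The change lay between -2.16 and -1.83 as each library was left out, with limma adjusted p-values of 0.00778 to 0.0358, and it passed both limits in every alternative.

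Slc2a1 (ENSMUSG00000028645, chromosome 4 from 119108711 to 119137983, plus strand), the gene of GLUT1, was at 190, 290 and 584 CPM across CTL and at 222, 158 and 126 CPM across Nelfb-/- cells. CTL replicate 3 stood high and CTL replicate 1 was below Nelfb-/- replicate 1, so that the groups overlapped. The log2 fold change of -0.95 (SE 0.43, 95% interval -1.98 to 0.075, limma, adjusted p = 0.180) did not pass, and without CTL replicate 3 it was -0.52.

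Slc2a3 (ENSMUSG00000003153, chromosome 6 from 122727809 to 122801640, minus strand), the gene of GLUT3, had the lowest level per exon length of the 9 genes. Its values were 21.1, 21.3 and 21.7 CPM across CTL and 16.5, 19.3 and 13.0 CPM across Nelfb-/- cells. The Nelfb-/- libraries were all lower, by a log2 fold change of -0.41 (SE 0.18, 95% interval -0.84 to 0.025) that did not pass (limma, adjusted p = 0.174). Gm4482, a processed pseudogene, lies on the same strand inside the span of Slc2a3 over 742 bases and was listed at 22.2 to 42.7 CPM across CTL and 14.3 to 20.8 CPM across Nelfb-/- libraries. Reads of the 2 may have been split in the counting, which makes the level of Slc2a3 uncertain.

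**Figure D2:**
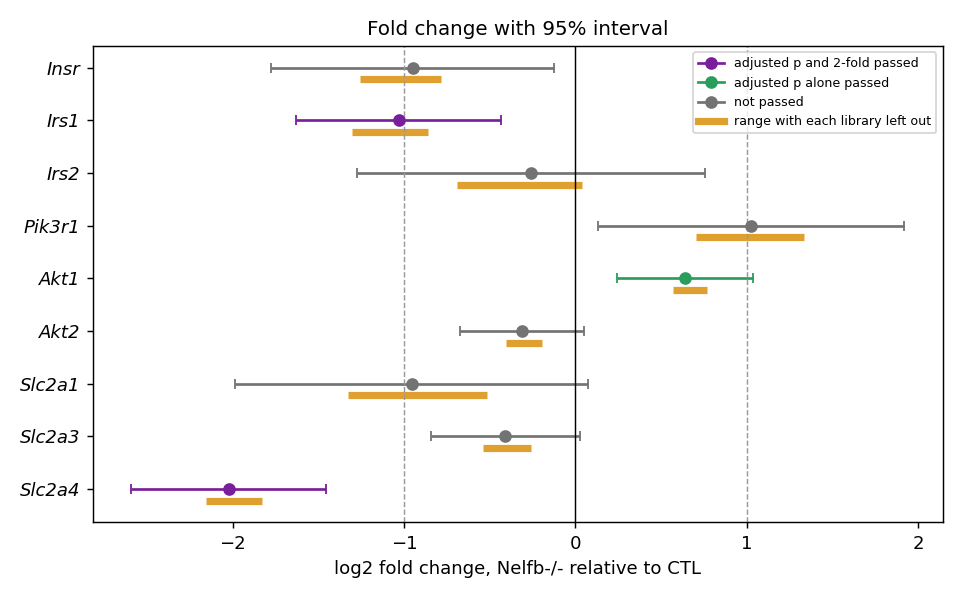
Log2 fold change of Nelfb-/- relative to CTL (x axis) for the 9 genes, with 95% intervals from limma (thin bars) and the range over fits that each leave out 1 library (thick bars). Dashed lines mark 2-fold. Slc2a4 at -2.02 lies past the 2-fold line over its whole interval, and Irs1 at -1.03 lies on it.

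To compare the levels of different genes, CPM was divided by the length of the exons in kilobases. On this scale Slc2a1 was the most abundant of the 9 genes in CTL cells, at 101 ± 58.5 CPM per kb (SD, n = 3), and Slc2a3 the least, at 2.95 ± 0.039. Slc2a4 came second with 35.1 ± 8.30 CPM per kb, ahead of Irs2 at 34.4 ± 15.5, Akt1 at 33.8 ± 3.39, Akt2 at 29.5 ± 0.649, Pik3r1 at 24.5 ± 10.3 and Insr at 22.2 ± 7.23. Irs1 followed at 12.2 ± 3.65. Neighbours in this order had overlapping ranges, except between Slc2a1 and Slc2a4, between Akt1 and Akt2 and between Irs1 and Slc2a3. In Nelfb-/- cells Slc2a4 was seventh with 8.62 ± 1.85 CPM per kb, between Insr (11.5 ± 4.09) and Irs1 (5.81 ± 0.607). Akt1 (53.0 ± 7.83), Pik3r1 (48.4 ± 13.8) and Slc2a1 (48.1 ± 14.0) held the first places there, followed by Irs2 (27.5 ± 9.82) and Akt2 (23.9 ± 3.44). The ranges of neighbours overlapped there too, except between Akt2 and Insr and between Irs1 and Slc2a3.

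Among the 9 genes of the Slc2a family in the table, Slc2a1 and Slc2a4 made up most of the mRNA per length. Slc2a4 held 32.2%, 23.0% and 19.5% of it across CTL and 7.65%, 13.8% and 15.9% across Nelfb-/- cells. The share of Slc2a4 was lower in each Nelfb-/- library than in each CTL library, while that of Slc2a1 was 54.2% to 73.1% in CTL and 59.5% to 74.7% in Nelfb-/- cells and overlapped. The sum over the family was 100, 124 and 228 CPM per kb in CTL and 84.8, 71.3 and 60.2 CPM per kb across Nelfb-/- cells, and all Nelfb-/- libraries were the lower. Among the insulin receptor substrates, Irs2 held 62.8% to 69.5% in CTL and 74.7% to 84.7% in Nelfb-/- libraries, Irs1 24.7% ± 4.92 and 17.5% ± 3.12 (SD, n = 3 each), and Irs3 the rest. No test was made of these shares.

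**Figure D3:**
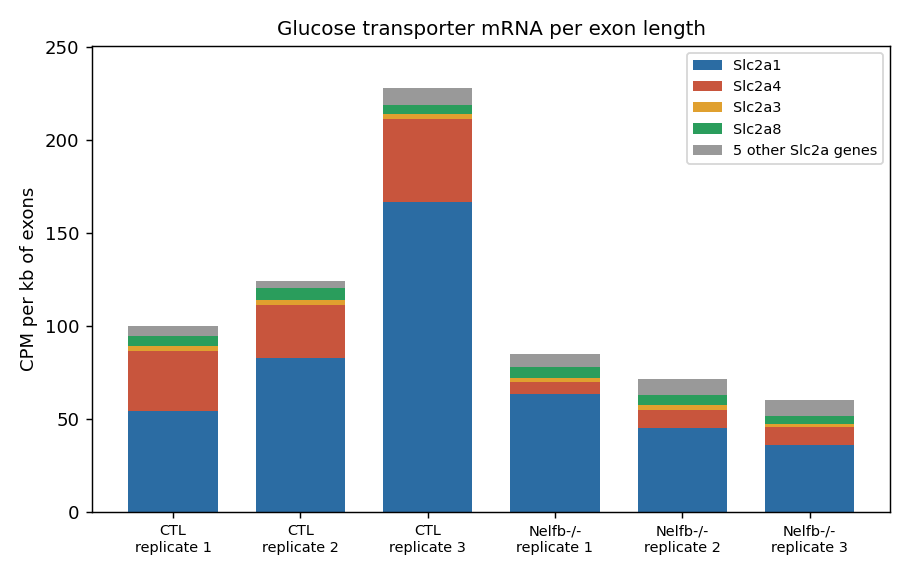
CPM per kb of exons (y axis, starting at 0) of the 9 Slc2a genes stacked for each library (x axis, 3 CTL and 3 Nelfb-/- libraries). The Slc2a4 segment is 28.6 to 44.4 CPM per kb in CTL and 6.49 to 9.81 CPM per kb in Nelfb-/- libraries, and the height of CTL replicate 3 comes from Slc2a1 at 167 CPM per kb.

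The adipocyte markers were lower in sum in 2 of the 3 Nelfb-/- libraries than in any CTL library, so the 9 genes were also given per 1000 CPM of the summed markers. On this scale Slc2a4 was at 3.79, 3.52 and 8.49 across CTL and at 2.40, 1.84 and 2.24 across Nelfb-/- cells, lower in every Nelfb-/- library. Irs1 was at 4.63, 4.42 and 4.07 in CTL and at 6.33, 2.65 and 3.42 in Nelfb-/- libraries, where the groups overlapped. Insr overlapped as well, with 10.5 to 12.6 in CTL and 23.7, 6.66 and 8.54 in Nelfb-/- libraries. Akt1 and Pik3r1, of which Pik3r1 overlapped in CPM, were higher in every Nelfb-/- library, and the other 4 genes overlapped. The divisor was smaller in 2 of the 3 Nelfb-/- libraries, which raises their values on this scale. The share of all genes without overlap was not taken on this scale. Fabp4 alone gave 48.7% to 69.8% of the marker sum, so that the scale rests largely on 1 gene and does not count cells. The part of cell numbers in these values was not tested.

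The rest of the pathway was followed through 86 other genes in 7 groups by role, of which 78 were tested. Of these, 12 rose and 9 fell at an adjusted p of 0.05, and 9 rose and 3 fell with at least 2-fold change, beside the background of 9.96% up and 5.83% down at the adjusted p alone and of 7.58% up and 3.64% down for both limits. Their median log2 fold change was -0.0014. The count depended on the libraries, since of the 21 genes 20 passed without CTL replicate 3 and 18 without Nelfb-/- replicate 1, but 8 without CTL replicate 1, 5 without CTL replicate 2, 9 without Nelfb-/- replicate 2 and 2 without Nelfb-/- replicate 3. Ptpn1 and Enpp1 were the 2 that passed throughout.

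**Figure D4:**
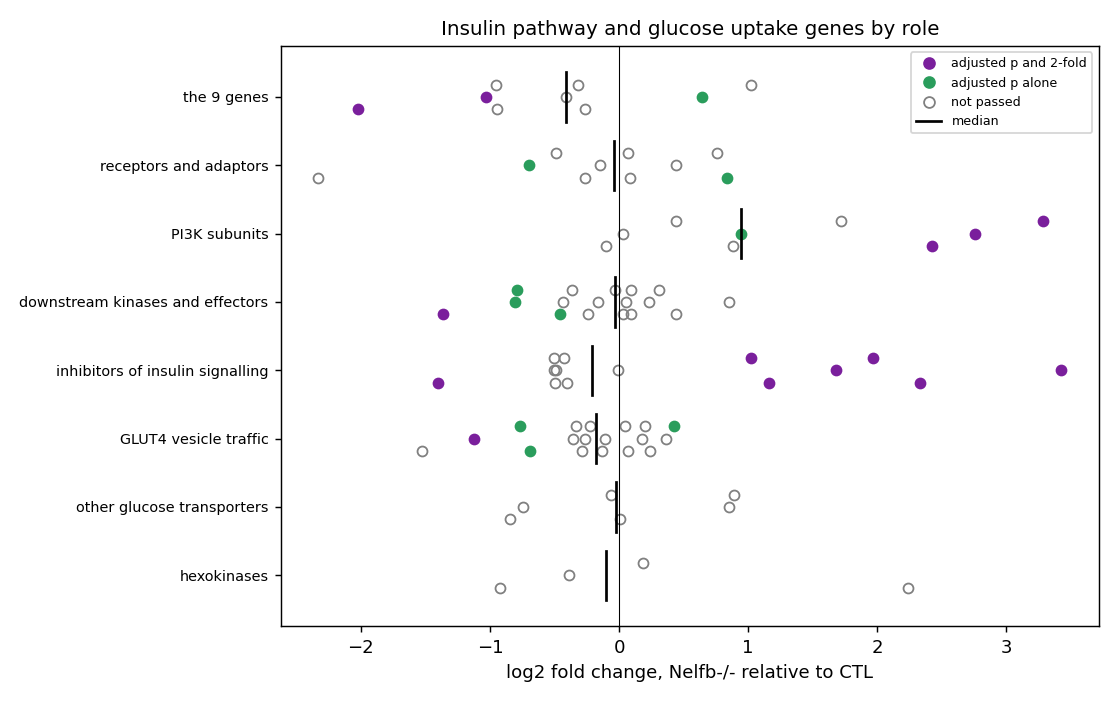
Log2 fold change of Nelfb-/- relative to CTL (x axis) of each tested gene, by role (rows), with the median of each row as a vertical bar and colours for the limits passed in limma. The PI3K row has 3 genes at 2.42 or more, and the inhibitor row has 6 filled points to the right and 1 to the left. None of the Slc2a genes in the row of other glucose transporters passed.

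Among receptors and adaptors, 1 of the 10 genes tested rose and 1 fell at the adjusted p alone, beside 9.96% up and 5.83% down of all genes, both by less than 2-fold, and Insrr and Irs4 were not analysed here. Grb2, an adaptor that links receptors to RAS, rose from 68.3 to 75.4 CPM in CTL to 114 to 156 CPM across Nelfb-/- libraries (log2 fold change 0.83, SE 0.16, limma, adjusted p = 0.0182). Shc1, an adaptor of the same branch, fell from 146 to 187 CPM to 94.2 to 102 CPM (-0.70, limma, SE 0.14, adjusted p = 0.0237). Irs3, a substrate found in rodent adipocytes, was at 17.7, 17.2 and 4.08 CPM across CTL and at 1.09, 2.74 and 3.10 CPM across Nelfb-/- cells. The groups did not overlap, and the log2 fold change of -2.33 (SE 0.68) did not pass (limma, adjusted p = 0.0642) unless CTL replicate 3 was left out (0.0139).

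Of the 9 other PI3K genes 4 rose and 0 fell in limma, 3 of them by at least 2-fold, beside 9.96% up and 5.83% down of all genes at the adjusted p alone, with a median log2 fold change of 0.95. With voom weights the counts were also 4 and 0, and at an unadjusted p of 0.05 they were 5 and 0, but no share of all genes was taken for either. Pik3cd, for the catalytic subunit p110δ, was at 3.61, 2.71 and 1.60 CPM across CTL and at 15.7, 10.3 and 15.5 CPM across Nelfb-/- cells (2.42, limma, SE 0.35, adjusted p = 0.00960). Pik3cg, for p110γ, was at 1.21 to 3.74 CPM across CTL and 11.5 to 26.9 CPM across Nelfb-/- libraries (3.28, limma, SE 0.52, adjusted p = 0.0120). Pik3r6, a regulatory subunit that partners p110γ, rose from near the floor (0.0933 to 0.361 CPM) to 1.05 to 2.32 CPM (2.76, limma, SE 0.55, adjusted p = 0.0215). Pik3r6 held enough reads to be tested only through the Nelfb-/- libraries. With a pseudocount of 1 CPM its log2 fold change was 1.07 (limma, adjusted p = 0.0236). p110δ and p110γ are known mainly from leukocytes, and the macrophage markers were higher in the same libraries: 7 of the 8 passed both limits upwards. Ptprc, which marks leukocytes in general, was at 2.86 to 9.11 CPM across CTL and 16.9 to 71.3 CPM across Nelfb-/- libraries (2.74, limma, SE 0.63, adjusted p = 0.0326), and Csf1r, the receptor of macrophage growth factors, at 12.3 to 22.6 and 87.0 to 206 CPM (3.08, limma, SE 0.36, adjusted p = 0.00579). Their part in the result was not tested. Pik3r3 passed with 0.95 (limma, SE 0.23, adjusted p = 0.0397), just under 2-fold, but not with TMM factors (0.0501).

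Of the 7 groups, the genes that restrain the signal held the most calls, as 6 of 14 rose and 1 fell with at least 2-fold change, beside 7.58% up and 3.64% down of all genes at both limits, although their median was -0.21. Ptpn1, which encodes the phosphatase PTP1B that acts on the insulin receptor, was at 39.9, 39.9 and 32.5 CPM across CTL and at 92.9, 77.5 and 81.1 CPM across Nelfb-/- cells, and rose 2.24-fold (1.16, limma, SE 0.15, adjusted p = 0.00676). Enpp1, for a membrane protein that inhibits the receptor, was at 3.25, 5.27 and 3.60 CPM and at 23.9, 16.4 and 20.6 CPM, and rose 5.02-fold (2.33, limma, SE 0.26, adjusted p = 0.00527). CTL and Nelfb-/- libraries did not overlap at either gene, and with each library left out the limma adjusted p was at most 0.0468 for Ptpn1 and 0.0394 for Enpp1. Socs3 and Socs1, cytokine-induced genes whose products bind the receptor and its substrates, rose with log2 fold changes of 1.97 (limma, SE 0.41, adjusted p = 0.0247) and 1.68 (limma, SE 0.42, adjusted p = 0.0416). Ptprf, a receptor-type phosphatase, rose from 25.9 to 37.1 CPM to 49.3 to 68.9 CPM (1.02, limma, SE 0.20, adjusted p = 0.0221). Inpp5d, for the lipid phosphatase SHIP1 of blood cells, rose from 3.03 to 7.94 CPM to 94.2, 26.4 and 44.6 CPM across Nelfb-/- cells (3.43, limma, SE 0.55, adjusted p = 0.0121), highest in the library with the highest macrophage markers. Trib3, a pseudokinase that binds AKT, fell from 60.1 to 127 CPM to 27.1 to 36.1 CPM (-1.40, limma, SE 0.30, adjusted p = 0.0270).

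Of 17 kinases and effectors downstream of PI3K, 4 fell and 0 rose in limma, with and without voom weights, beside 5.83% down and 9.96% up of all genes at this adjusted p. At an unadjusted p of 0.05 there were 4 lower and 3 higher, a limit at which no share of all genes was taken. Their median log2 fold change was -0.028. Foxo1, a transcription factor that AKT keeps out of the nucleus, was at 108, 109 and 115 CPM across CTL and at 63.9, 63.8 and 64.2 CPM across Nelfb-/- cells. These values varied little within groups and gave a log2 fold change of -0.79 (limma, SE 0.11, adjusted p = 0.00862). Pde3b, for the phosphodiesterase through which insulin restrains lipolysis, was at 647, 794 and 525 CPM across CTL and at 182, 325 and 266 CPM across Nelfb-/- libraries and fell 2.58-fold (-1.37, limma, SE 0.27, adjusted p = 0.0213). Eif4ebp1, for a repressor of translation that mTORC1 inactivates, fell by a log2 fold change of -0.80 (limma, SE 0.17, adjusted p = 0.0247), and Prkci, for an atypical protein kinase C, by -0.46 (limma, SE 0.11, adjusted p = 0.0407). The call of Prkci was lost with no abundance trend (limma, adjusted p = 0.0787). Mlst8, a subunit of both mTOR complexes, was at 10.4 to 23.8 and 19.9 to 28.7 CPM and did not pass (0.85, limma, SE 0.35, adjusted p = 0.152) unless CTL replicate 3 was left out (0.0152).

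Of the 18 genes of GLUT4 vesicle traffic, 3 fell and 1 rose at the adjusted p alone, beside 5.83% down and 9.96% up of all genes, with a median of -0.18. Trarg1, a regulator of GLUT4 trafficking in adipocytes, was at 346, 442 and 344 CPM across CTL and at 140, 203 and 180 CPM across Nelfb-/- cells. All Nelfb-/- values were lower, by a log2 fold change of -1.12 (limma, SE 0.20, adjusted p = 0.0156). Tbc1d4, for the AKT substrate AS160 that holds the vesicles back, fell from 67.5 to 93.5 CPM to 40.3 to 55.1 CPM (-0.77, limma, SE 0.20, adjusted p = 0.0439), and Rhoq, for the GTPase TC10, from 144 to 171 CPM to 86.0 to 103 CPM (-0.69, limma, SE 0.14, adjusted p = 0.0231). Tbc1d4 did not pass with no abundance trend (limma, adjusted p = 0.0681). Snap23, a fusion protein of the surface membrane, rose by 0.43 (limma, SE 0.11, adjusted p = 0.0460), but did not pass with TMM factors (0.0735) or voom weights (0.0512). Txnip, for a protein that drives the uptake of transporters into the cell, was at 2121, 2249 and 914 CPM across CTL and at 906, 396 and 504 CPM across Nelfb-/- cells and did not pass (-1.53, limma, SE 0.46, adjusted p = 0.0709). Txnip passed without CTL replicate 3 (limma, adjusted p = 0.0219) and without Nelfb-/- replicate 1 (0.0434).

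Of the 6 other Slc2a genes tested, 0 passed an adjusted p of 0.05 in limma, with and without voom weights, beside 15.8% of all genes without the weights. At that share a count of 0 among so few genes says little about the family. At an unadjusted p of 0.05 there was 1 higher and 0 lower, with no share of all genes taken at that limit. Slc2a8, Slc2a13 and Slc2a10 were at 14.4 to 19.5, 12.7 to 19.4 and 4.95 to 17.9 CPM over all 6 libraries, and Slc2a9, Slc2a6 and Slc2a12 were at 9.91 CPM or less. Their log2 fold changes ran from -0.84 for Slc2a12 to 0.89 for Slc2a9, with Slc2a13 at 0.0056 and Slc2a8 at -0.059. Slc2a2, Slc2a5, Slc2a7, Slc5a1 and Slc5a2 were not analysed here. Of the 4 hexokinase genes, whose products trap glucose in the cell, 0 passed in limma, with and without voom weights, beside the same 15.8% of all genes and with the same limit of a short list. At an unadjusted p of 0.05 there was 1 higher and 1 lower, again with no share of all genes taken. Hk2, the insulin-regulated form, was at 158 to 238 CPM across CTL and 77.9 to 139 CPM across Nelfb-/- libraries without overlap (-0.92, limma, SE 0.27, adjusted p = 0.0657), and Hk3, known from blood cells, was at 2.82 to 13.1 and 18.3 to 78.1 CPM (2.24, limma, SE 0.73, adjusted p = 0.0855). Hk2 passed with median-of-ratios factors (limma, adjusted p = 0.0490) and without Nelfb-/- replicate 1 (0.0222).

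For the 2 genes that fell, the genes of most similar pattern were sought among 10055 genes with a mean of at least 10 CPM, by Pearson's r of the log2 values over the 6 libraries. Slc2a4 was followed most closely by Slc25a39 (r = 0.999), Foxred1 (0.998) and Ptges (0.998). Of these, Ptges, for a prostaglandin E synthase, was at 103 to 160 CPM across CTL and 28.3 to 45.0 CPM across Nelfb-/- libraries and thus near Slc2a4 in size of change as well. Irs1 was followed by Ubr3 (0.997), Ehhadh (0.996) and Dock11 (0.996). Ehhadh, for an enzyme of fatty acid oxidation in peroxisomes, was at 163, 128 and 29.0 CPM across CTL and 13.6 to 20.6 CPM across Nelfb-/- libraries, and shared with Irs1 the low value of CTL replicate 3. The 6 libraries share the split into groups, so that such values of r are a description of the pattern.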

How the data were processed

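RNA-seq was performed on CTL and Nelfb-/- cells (3 libraries each). Per the labels and methods, RNA was extracted with a GeneJET kit and sequenced on a NovaSeq, and the submitters' processing notes name STAR (2.7), Partek (9.0.20.0202) and mm10. The counting, the annotation release and the use of strand are not given in the sources used here. The authors deposited CPM values with an offset of 0.0001 and left out genes under 10 reads. No columns of the authors' own comparisons were used.

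The offset was subtracted. The steps of the low values gave each library's depth, but only 68.9% to 71.6% of values up to 20 reads lay within 0.02 of a whole number of steps, so no count test was run. CPM was multiplied by 22.3 M reads (M, 1e+06), and genes whose mean reached 10 reads entered limma (3.58.1, R 4.3.3) as log2(value + 1 read), with an abundance trend and Benjamini-Hochberg adjustment over all genes tested. On this scale changes of genes near the floor are understated. The threshold was an adjusted p of 0.05 with a 2-fold change. Exon lengths are the union of all annotated exons of a gene in GENCODE vM21 (GRCm38), in which 17551 genes were matched by name. The transcripts present in these cells may be shorter, which was not tested. The code of the fit was also run on simulated data, whose outcome is not given here and is not used as support. The 9 genes, the gene lists and the tests were chosen with earlier results of these data known. Genes named are the 9 genes, Nelfb, the other listed Slc2a and Slc5a genes, defining markers, and the 3 genes most like each of the 9 that passed. Of each list, those past an adjusted p of 0.05 and the 2 of largest change were named as well. Igf1r, Retn, Lep, Myod1, Ckm and the overlapping genes were added after their values were seen. The libraries are called biological replicates, and whether each came from a separate animal is not given, so p-values measure the spread between these libraries. The 95% intervals come from limma's SE over libraries, whereas the floor covers counting error only.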

Additional observations from a re-analysis of the deposited data

How the results depend on the processing

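The 1824 genes past the threshold became 426 to 2479 as each library was left out. Of the 9 genes, 2 passed the threshold and 3 the adjusted p alone, and these counts were 1 and 1 with no abundance trend, and 1 to 4 and 1 to 5 as each library was left out, highest without CTL replicate 3 (Insr and Pik3r1 then passed). Irs1 was lost with no abundance trend (limma, adjusted p = 0.0579), as was Akt1 (0.0702).

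The values that changed sign did not pass in any of these fits. Irs2 ran from -0.69 to 0.037 as each library was left out, positive without CTL replicate 2. Slc2a8 ran from -0.14 to 0.035, positive without CTL replicate 2 (0.031) and without Nelfb-/- replicate 3. Slc2a13 was at -0.063 with median-of-ratios and -0.062 with TMM factors, and -0.0071 with voom weights, and ran from -0.15 (without CTL replicate 2) to 0.16 as each library was left out, also negative without Nelfb-/- replicate 2 (-0.025) and replicate 3 (-0.075). Over 16 alternatives, 127 of the 144 values of the 9 genes kept their direction and their side of an adjusted p of 0.05, whatever the fold, 13 no longer passed it, 3 newly passed it and 1 changed sign. For the other 43 genes these numbers were 574 of 688, 95, 11 and 8. Fits without a library hold fewer samples, and the cause was not tested beyond that.

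Same-numbered libraries deviated together for numbers 1 (r = 0.515) and 3 (0.518) but not 2 (-0.395), and Nelfb-/- replicate 2 correlated best with CTL replicate 3 (0.536), so the numbers were not taken as pairs. With the replicate block 2175 genes passed, and 2 of the 9 genes passed the threshold, with limma adjusted p-values of 0.0454 for Insr and 0.0613 for Akt1. Of the other named genes, Txnip (0.0422) and Hk3 (0.0258) passed the adjusted p with the block, and Pik3r3 (0.0594), Prkci (0.0988), Tbc1d4 (0.0559), Snap23 (0.117) and Rhoq (0.0509) no longer did.

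The 9 genes lay far above the floor at depths of 17.2 M to 29.4 M reads (M, 1e+06), so that the spread between 3 libraries per group set the precision.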
